A study of Mus musculus with 25 samples.

Results

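The effect of deleting *Bmal1* (listed by its gene symbol *Arntl*) in cholinergic neurons was measured at zeitgeber time 20 (ZT20), in the dark, active period of the mouse day, on mRNA bound to the ribosomes of these neurons. The comparison took the 12 ZT20 immunoprecipitates of a series of 25 samples, of which 24 were immunoprecipitates and 1 was a pooled input of spinal cord RNA. It covered every gene with at least 10 counts summed over the 24 immunoprecipitates, which kept 21738 of 50559 genes. The 6 *ChAT-BKO* mice carried *ChAT-Cre*, *RiboTag* fx/+ and *Bmal1* fx/fx, and the 6 controls, called wild-type in the labels, carried *ChAT-Cre* and *RiboTag* fx/+ without floxed *Bmal1* alleles. All were 6-mo-old male mice on the C57BL/6J background, kept in a cycle of equal light and dark, with 1 spinal cord per immunoprecipitate and no drug or diet treatment named. Cre was expressed from the *ChAT* gene, so that deletion and ribosome tagging took place in cholinergic neurons as a class, motor neurons and cholinergic interneurons alike. The counts are per gene, and *Arntl* transcripts without the deleted exon are still counted.

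BMAL1 pairs with CLOCK or its paralog NPAS2 and activates genes through E-box DNA elements. Among these targets are the period and cryptochrome genes, whose proteins shut off BMAL1 and CLOCK, and the REV-ERB genes, whose proteins repress *Arntl*, *Cry1* and *Nfil3* through ROR elements. A further arm of DBP, TEF, HLF and the repressor NFIL3 acts on D-box elements. In nervous tissue this loop is present in most cell types and controls much of the daily rhythm of their transcripts.

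The 6 control libraries held 10.6 to 31.7 M counts (median 12.4 M) and the 6 *ChAT-BKO* libraries held 5.22 to 18.7 M (median 7.62 M, where M is 1e6), so that low transcripts were measured less precisely in *ChAT-BKO* libraries. A count of 0 allows up to 0.575 CPM (counts per 1e6 counts) in the shallowest of the 12 libraries and 0.0947 CPM in the deepest, which covers counting error only. In each of 30 pairs of libraries from 1 group, counts differed beyond counting error. All 9 markers of cholinergic neurons were higher in the control immunoprecipitates than in the pooled input, with a median log2 ratio of 2.91, and the median ratio was -3.16 for 6 oligodendrocyte markers and -4.00 for 6 astrocyte markers. None of the 9 cholinergic markers passed the test between genotypes, and neither did any marker of the other cell types listed. *Chat*, which encodes the enzyme that makes acetylcholine, was at 62.7 to 101 CPM in controls (median 87.5) and at 51.2 to 129 CPM in *ChAT-BKO* libraries (median 90.1). In such bulk samples, fewer cells of a type and less RNA per cell cannot be told apart.

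The deleted gene was examined before all others. *Arntl* (chr7:113207465-113314126, GRCm38) was at 7.60, 8.53 and 10.9 CPM (lowest, median and highest library) in controls and at 1.35, 1.81 and 2.80 CPM in *ChAT-BKO* libraries. The highest *ChAT-BKO* library was below the lowest control. The log2 fold change was -2.08 (SE 0.16), a 4.21-fold fall, with an adjusted p = 1.98e-07 from edgeR's quasi-likelihood test, the test used for each adjusted p given without another name. An exact two-sided permutation test on CPM gave p = 0.00216, the smallest that 6 against 6 libraries can give. Gene counts cannot separate the remaining transcripts with the deleted exon from those without it.

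Of the 21738 genes tested, 41 were upregulated (0.189%) and 9 were downregulated (0.0414%) at an adjusted p under 0.05, and 1366 had an unadjusted p under 0.05. The median log2 fold change of all genes tested was -0.006. Among the 50 genes, 45 are annotated as protein coding. The groups did not overlap for 29 of the 41 and 8 of the 9, against 0.322% and 0.193% of all genes tested. These genes were selected by the test on the same libraries, so this separation is no further support for the calls. The upregulated genes fell into large and small changes, with 17 above 1 and 16 below 0.5 on the log2 scale. DESeq2 called 80 upregulated and 13 downregulated genes, 46 of the 50 among them.

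Promoters of 4 clock genes that moved are shown because 2 of them rose and 2 fell, although all 4 belong to the same feedback loop. The sequences are the 250 bases before the annotated start, from RefSeq on GRCm38.p6, read 5′ to 3′ on the strand of the gene. Capitals mark the E-box CACGTG, its variant CACGTT, the D-box TTANGTAA and the ROR element TAGGTCA, each searched on both strands, and no 2 matches overlapped.
Cry1: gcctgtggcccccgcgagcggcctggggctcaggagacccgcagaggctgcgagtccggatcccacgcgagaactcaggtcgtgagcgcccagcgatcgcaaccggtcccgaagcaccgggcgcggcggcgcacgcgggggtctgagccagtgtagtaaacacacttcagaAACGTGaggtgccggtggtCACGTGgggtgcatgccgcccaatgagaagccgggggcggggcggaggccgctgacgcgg
Nfil3: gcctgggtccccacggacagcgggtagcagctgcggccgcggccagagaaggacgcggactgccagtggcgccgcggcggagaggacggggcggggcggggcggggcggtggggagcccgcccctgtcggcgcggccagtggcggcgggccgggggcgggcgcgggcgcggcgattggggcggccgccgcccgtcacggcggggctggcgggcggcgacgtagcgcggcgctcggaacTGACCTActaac
Ciart: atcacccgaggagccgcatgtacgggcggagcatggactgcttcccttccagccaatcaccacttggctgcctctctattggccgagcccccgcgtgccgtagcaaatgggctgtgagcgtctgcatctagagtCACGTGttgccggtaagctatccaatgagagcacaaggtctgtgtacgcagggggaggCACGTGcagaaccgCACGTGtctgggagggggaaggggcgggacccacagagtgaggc
Nr1d2: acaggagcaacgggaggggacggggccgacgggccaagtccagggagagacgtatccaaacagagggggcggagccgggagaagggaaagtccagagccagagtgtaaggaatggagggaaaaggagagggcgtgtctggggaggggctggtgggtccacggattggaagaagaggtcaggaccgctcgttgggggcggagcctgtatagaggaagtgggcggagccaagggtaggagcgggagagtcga
These windows lie at chr10:85185055-85185304 for *Cry1*, chr13:52981040-52981289 for *Nfil3*, chr3:95882229-95882478 for *Ciart* and chr14:18239107-18239356 for *Nr1d2*, all on the minus strand. *Ciart* held 3 copies of CACGTG, whose 5′ ends lie 116, 58 and 44 bases before the start. *Cry1* held CACGTG at 60 bases and the variant, on the opposite strand, at 79 bases. *Nfil3* held the ROR element at 12 bases, and the *Nr1d2* window held none of the 4 motifs. Among all 32851 RefSeq promoter windows, CACGTG was in 6.02%, CACGTT in 3.85%, TTANGTAA in 2.06% and TAGGTCA in 2.23%. A promoter entry was found for 35 of the 50 genes that passed and for 23 of the 29 clock genes listed. At least 1 window with CACGTG was found for 4 of the 35 (*Ciart*, *Cry1*, *Mical2* and *Prkcd*). This count is of genes, for which any window could match, and is not comparable with the shares of windows. These matches describe the letters of the window and are not evidence of binding.

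Of 29 clock genes listed, all were tested, 5 were upregulated and 3 were downregulated, and their median log2 fold change was 0.01. That is 27.6% called, against 0.23% of all genes tested. Members of each list were chosen with earlier results of these data known, so such shares are not a test. The period and cryptochrome repressors are given before the other arms. *Cry1*, a cryptochrome that inhibits CLOCK and BMAL1, was at 3.51, 4.07 and 4.35 CPM in controls and at 14.3, 17.7 and 20.2 CPM in *ChAT-BKO* libraries. The groups were far apart, and *Cry1* rose by 2.15 on the log2 scale (SE 0.11, adjusted p = 1.42e-10), a 4.44-fold change. *Per2*, a period repressor, was at 3.45, 4.02 and 5.09 CPM in controls and at 10.6, 13.7 and 18.8 CPM in *ChAT-BKO* libraries. The rise was 1.76 (SE 0.15, adjusted p = 6.09e-07), again without overlap. *Cry2*, the other cryptochrome, rose by 0.39 (SE 0.05, adjusted p = 0.000461), from 116, 122 and 127 CPM to 143, 159 and 170 CPM. *Per1* and *Per3* did not pass, at log2 fold changes of 0.09 (95% interval -0.07 to 0.25) and 0.19 (-0.04 to 0.43), so that 3 of 5 period and cryptochrome transcripts rose.

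The REV-ERB and CHRONO transcripts lay on the other side. *Nr1d2*, which encodes REV-ERBβ, was at 40.2, 46.1 and 52.9 CPM in controls and at 15.3, 17.6 and 21.9 CPM in *ChAT-BKO* libraries. It fell by 1.35 on the log2 scale (SE 0.09, adjusted p = 9.30e-09), with no overlap between the groups. *Ciart*, which encodes the BMAL1 inhibitor CHRONO, fell by 1.25 (SE 0.12, adjusted p = 2.39e-06), from 7.88, 9.24 and 10.3 CPM to 3.50, 4.05 and 4.23 CPM. *Nr1d1*, which encodes REV-ERBα, was at 34.3, 38.7 and 64.2 CPM in controls and at 27.3, 28.9 and 33.0 CPM in *ChAT-BKO* libraries. All 6 *ChAT-BKO* values were below all controls, but 1 control stood far above the others, and the log2 fold change of -0.50 (SE 0.12) did not pass (adjusted p = 0.140, range 0.000508 to 0.634 over the alternatives and single libraries left out). The DEC factors *Bhlhe40* and *Bhlhe41*, E-box repressors, were at log2 fold changes of -0.08 and -0.10 and did not pass.

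Of 4 output factors of the D-box arm 1 rose, and no partner of BMAL1 passed. *Nfil3*, the D-box repressor, was at 6.63, 7.71 and 9.25 CPM in controls and at 13.8, 14.7 and 16.3 CPM in *ChAT-BKO* libraries, a rise of 0.96 (SE 0.10, adjusted p = 2.70e-05) without overlap. *Hlf*, a D-box activator, had all 6 *ChAT-BKO* libraries (12.3 to 18.5 CPM) above all controls (8.6 to 11.9 CPM), but its log2 fold change of 0.44 did not pass (adjusted p = 0.127). It passed with DESeq2 (adjusted p = 0.021), and in edgeR with all 24 immunoprecipitates (0.0384) or the length covariate (0.0274). With the muscle covariate its adjusted p was 0.771 in edgeR. *Dbp* and *Tef*, of the same family, were at -0.25 and -0.06. *Npas2*, the paralog of *Clock*, was at 1.05, 1.46 and 2.07 CPM in controls and at 1.90, 2.53 and 3.15 CPM in *ChAT-BKO* libraries, a log2 fold change of 0.82 (95% interval 0.41 to 1.23, adjusted p = 0.166). *Clock* was at 0.14 (-0.07 to 0.34). Of 8 clock kinases and ubiquitin ligases none passed (median -0.02), and of 13 further clock outputs none passed (median -0.01).

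**Figure D1:**
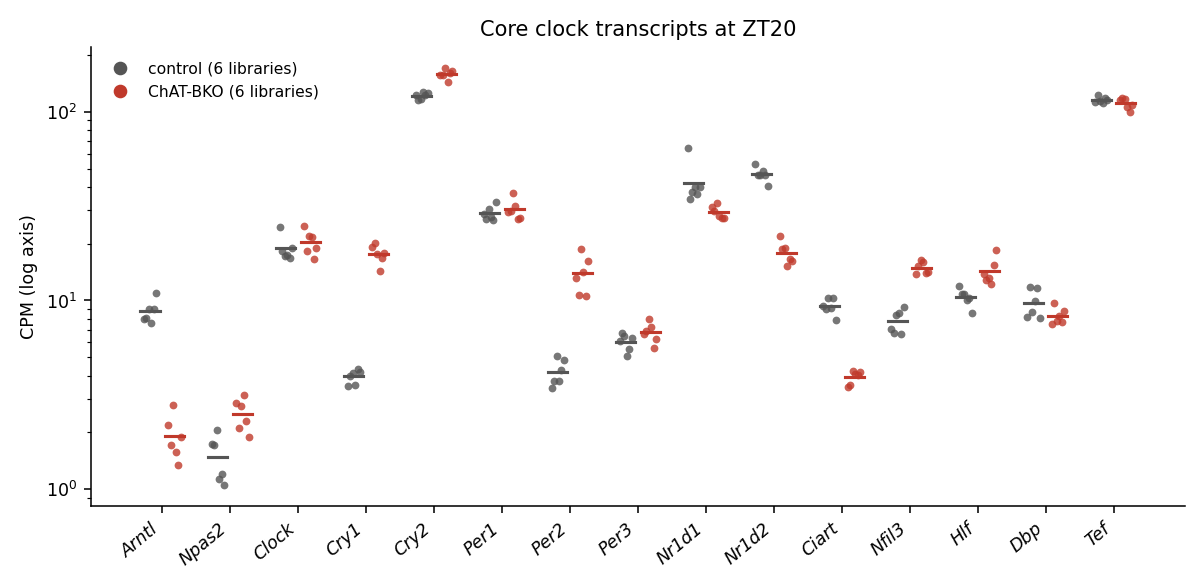
Core clock transcripts at ZT20, with each point 1 library, the bar the group mean and the vertical axis in CPM on a log scale. *Arntl*, *Nr1d2* and *Ciart* of the 6 *ChAT-BKO* libraries lie below all 6 controls, *Cry1*, *Cry2*, *Per2* and *Nfil3* lie above them, and *Per1*, *Clock* and *Tef* overlap.

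Outside the clock and apart from the ribosomal protein pseudogenes given further on, the transcript with the smallest adjusted p was *Cdkn1a* (chr17:29090976-29100727), which encodes p21, an inhibitor of cyclin-dependent kinases. It was at 3.84, 6.27 and 7.73 CPM in controls and at 16.8, 19.6 and 23.0 CPM in *ChAT-BKO* libraries. The rise of 1.77 (SE 0.15, adjusted p = 6.09e-07) was a 3.42-fold change with no overlap. *Cdkn1a* is also a classical p53 target, and none of the 18 other p53 targets tested passed (median -0.04, range -0.33 to 0.27). Of the 7 CDK inhibitors, only *Cdkn1a* passed. *Cdkn2a*, which encodes p16 and p19ARF, was at 1.32 to 2.45 CPM in controls and at 2.20 to 5.64 CPM in *ChAT-BKO* libraries, a log2 difference of 0.89 (SE 0.24, adjusted p = 0.212, 0.00715 with the length covariate described below).

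*Lamp5*, a neuronal member of the lysosome-associated membrane protein family, was at 124, 135 and 145 CPM in controls and at 185, 214 and 230 CPM in *ChAT-BKO* libraries. It rose by 0.64 (SE 0.06, adjusted p = 3.78e-06), a 1.56-fold change without overlap, and was the only 1 of 11 lysosome membrane transcripts that passed. In fatty acid synthesis, 2 of 21 transcripts rose (9.52%, against 0.189% over all genes tested). *Scd3*, a stearoyl-CoA desaturase, was at 3.23, 4.66 and 4.98 CPM in controls and at 8.22, 9.60 and 13.1 CPM in *ChAT-BKO* libraries, a rise of 1.19 (SE 0.14, adjusted p = 6.54e-05). Its neighbours on chromosome 19 did not pass, with *Scd1* at 0.15 (95% interval 0.04 to 0.27) and *Scd2* at 0.02 (-0.06 to 0.09). *Elovl7*, which lengthens fatty acid chains, rose by 0.41 (SE 0.07, adjusted p = 0.00469), from 19.4, 21.2 and 22.4 CPM to 26.2, 27.8 and 31.8 CPM.

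*Sprr1a* (chr3:92483952-92485895), a small proline-rich protein known for its induction in injured neurons, was at 0.471, 1.01 and 1.66 CPM in controls and at 2.75, 3.91 and 8.53 CPM in *ChAT-BKO* libraries. Every *ChAT-BKO* library was above every control, and the rise was 2.19 (SE 0.28, adjusted p = 0.000326), a 4.56-fold change. It was the only 1 of 26 axon injury transcripts that passed (median of the list 0.02). *Atf3*, a transcription factor of the injury response, was at 0.754 to 2.44 CPM in controls and at 2.09 to 3.98 CPM in *ChAT-BKO* libraries, with a log2 difference of 0.76 (SE 0.23, adjusted p = 0.368). *Jun* and *Gap43*, a transcription factor and a growth cone protein of the same list, were at -0.01 and 0.02.

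In the extracellular matrix list, 2 of 82 transcripts rose (2.44%, against 0.189% over all genes tested). Of the 82, 58 were above 0, against 10504 of 21738 over all genes tested (median 0.10 against -0.01). Only 10 of the 82 were higher in the control immunoprecipitates than in the pooled input, with a median log2 ratio of -1.46. Whether the shift arose in cholinergic neurons was not tested. *Loxl4*, which cross-links collagen and elastin, was at 4.49, 5.91 and 7.05 CPM in controls and at 10.9, 12.2 and 14.6 CPM in *ChAT-BKO* libraries, a rise of 1.07 (SE 0.12, adjusted p = 5.74e-05) without overlap. *Colq*, the collagen tail that anchors acetylcholinesterase at the neuromuscular synapse, rose by 0.65 (SE 0.12, adjusted p = 0.0240), from 4.63, 5.09 and 6.12 CPM to 7.19, 8.09 and 10.7 CPM. No collagen of 26 passed, and *Col4a2*, a basement membrane collagen, was at 0.58 (SE 0.13, adjusted p = 0.0747, 0.00773 with DESeq2). DESeq2 called 6 of the 82 matrix transcripts and 8 of the 55 in the cytoskeleton list that follows. In that list 4 of 55 rose in the edgeR test (7.27%, against 0.189% over all genes tested), by 0.26 to 0.48. They were *Prkcd*, *Palld* and *Mical2* of 31 actin regulators and *Tubb6* of 13 tubulins. *Mical2*, which oxidizes actin filaments, went from 68.6, 87.1 and 94.3 CPM to 98.4, 111 and 142 CPM (0.44, SE 0.09, adjusted p = 0.0423). *Tubb6*, a beta tubulin, went from 14.9, 18.3 and 23.4 CPM to 22.5, 25.9 and 30.5 CPM (0.48, SE 0.10, adjusted p = 0.0461). These last 4 calls stood close to the threshold, each with an adjusted p between 0.0300 and 0.0461. The abundant intermediate filament, non-muscle actin and tropomyosin transcripts had medians of 0.02 and -0.03 with none passing.

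Further transcripts rose without belonging to 1 pathway. *Plch2*, a phospholipase C of the eta class, was at 17.4, 18.1 and 19.2 CPM in controls and at 24.2, 26.0 and 28.9 CPM in *ChAT-BKO* libraries (0.53, SE 0.07, adjusted p = 0.000286). *Tspan33*, a tetraspanin, went from 40.7, 44.4 and 46.4 CPM to 53.5, 61.8 and 63.8 CPM (0.44, SE 0.06, adjusted p = 0.000461). Neither transcript had any overlap between groups. *Il4ra*, a cytokine receptor chain, rose by 0.44 (SE 0.06, adjusted p = 0.00204), and *Fut2*, a fucosyltransferase, by 1.01 (SE 0.15, adjusted p = 0.00248). *Arl6ip1*, which shapes endoplasmic reticulum tubules, went from 346, 358 and 368 CPM to 404, 441 and 457 CPM, a small rise of 0.28 (SE 0.05, adjusted p = 0.00632). The small changes of *Olfm1*, a secreted synaptic protein (0.26, adjusted p = 0.0176), and *Kcng4*, a modulatory subunit of voltage-gated potassium channels (0.25, adjusted p = 0.0479), also left no overlap between groups, in transcripts that were at 324 and 619 CPM in the median control. *Hr*, a nuclear receptor corepressor (0.42), *Miga2*, a mitochondrial fusion protein (0.27), *Dtx4*, a Deltex-type ubiquitin ligase (0.39), *Asb4*, an ankyrin repeat and SOCS box protein (1.19), and *Ptpro*, a receptor-type tyrosine phosphatase (0.58), passed with adjusted p from 0.0159 to 0.0445. The remaining upregulated transcripts outside muscle were *BC034090* (0.45), *Fam222a* (0.62), *Gm32432* (0.80) and *Tm6sf1* (0.82), with adjusted p from 0.00329 to 0.0461.

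Apart from clock transcripts and ribosomal protein pseudogenes, 3 transcripts fell. *Srsf5* (chr12:80945504-80950507), a serine/arginine-rich (SR) splicing factor, was at 81.3, 91.4 and 108 CPM in controls and at 55.8, 64.1 and 76.8 CPM in *ChAT-BKO* libraries. The fall of 0.49 on the log2 scale (SE 0.08, adjusted p = 0.0113) came without overlap between groups. It was the only 1 of 13 SR proteins that passed, and 10 of the 13 were below 0 (median -0.13), among them *Srsf6* at -0.15 (adjusted p = 0.697). *Clk1*, a kinase that phosphorylates SR proteins, had all 6 *ChAT-BKO* libraries (13.7 to 19.0 CPM) above all controls (10.1 to 13.4 CPM), with a log2 fold change of 0.46 that did not pass (adjusted p = 0.0665, range 0.00816 to 0.544 over the alternatives and single libraries left out). *Cd24a*, a glycosylated surface protein of immature neurons, went from 299, 343 and 358 CPM to 261, 280 and 283 CPM (-0.28, SE 0.05, adjusted p = 0.0135). *Lxn*, an inhibitor of carboxypeptidases, went from 122, 135 and 151 CPM to 94.8, 104 and 124 CPM (-0.33, SE 0.07, adjusted p = 0.0423), with 5 of 6 *ChAT-BKO* libraries below all controls.

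**Figure D2:**
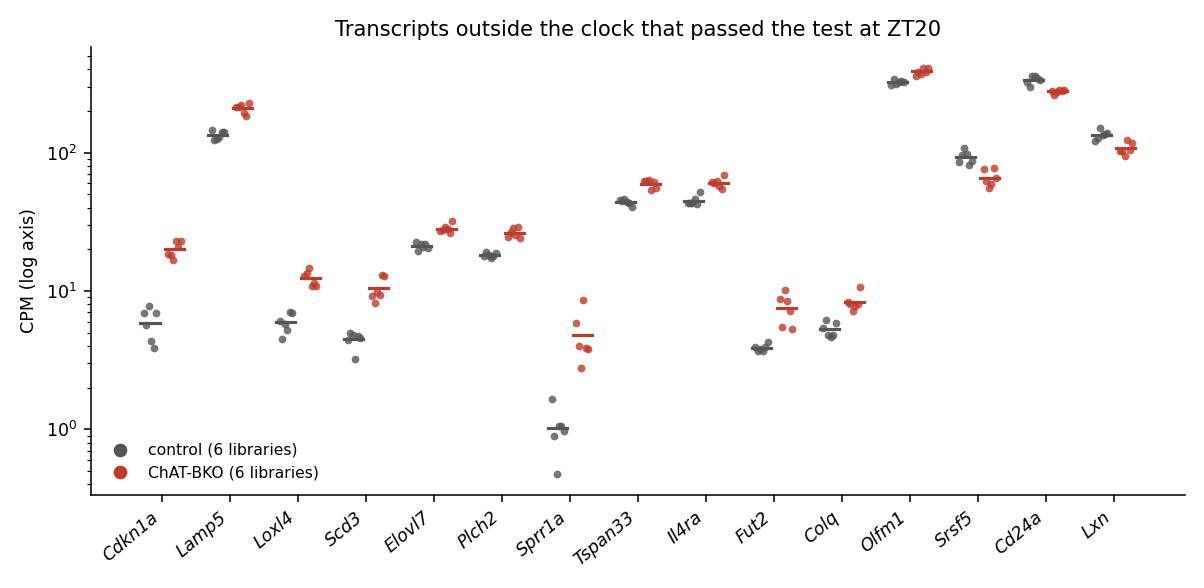
Transcripts outside the clock that passed the test at ZT20, with each point 1 library, the bar the group mean and the vertical axis in CPM on a log scale. *Cdkn1a* and *Sprr1a* show the widest separation, and *Srsf5*, *Cd24a* and *Lxn* lie lower in *ChAT-BKO* libraries.

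Several lists tied to motor neuron function held no call, where 0.23% of all genes tested were called. *Colq*, which rose, was counted in the extracellular matrix list and not among the neuromuscular junction transcripts given next. Of 22 transcripts of cholinergic synapses and the neuromuscular junction none passed (median 0.13), with *Chrnb4*, a neuronal nicotinic receptor subunit, at 1.20 on the log2 scale (SE 0.29, adjusted p = 0.123) on levels of 0.408 to 1.41 CPM in controls and at 0.928 to 2.20 CPM in *ChAT-BKO* libraries. Of 17 glutamate receptor subunits none passed (median 0.05), with *Grin2c*, an NMDA receptor subunit, at 0.46 (SE 0.11, adjusted p = 0.156). Of 20 activity-induced transcripts none passed (median 0.04), and *Fos*, an immediate early gene, was at 20.2, 25.7 and 33.8 CPM in controls and at 29.6, 35.9 and 45.5 CPM in *ChAT-BKO* libraries (0.53, SE 0.11, adjusted p = 0.0582). Of 22 heat shock transcripts none passed (median -0.00), with *Hspa1b*, an inducible HSP70 chaperone, at 0.59 (SE 0.15, adjusted p = 0.162). DESeq2 called *Chrnb4*, *Grin2c*, *Fos* and *Hspa1b*, with adjusted p of 0.0372, 0.0387, 0.00670 and 0.0360. Among 23 transcripts listed under neuropeptide and transmitter signalling, *Olfm1* rose and *Lxn*, the carboxypeptidase inhibitor, fell (8.7% called). *Hrh3*, a histamine receptor, was at -0.40 (SE 0.09, adjusted p = 0.0665). DESeq2 called 8 of these 23, *Hrh3* among them. Among 18 complement and immune transcripts, *Tspan33* and *Il4ra* rose and *Cd24a* fell (16.7% called), and DESeq2 called 5. Of these 18, 5 were higher in the control immunoprecipitates than in the pooled input, with a median log2 ratio of -2.02.

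Transcripts of skeletal muscle, a tissue outside the spinal cord, moved with genotype. Of 67 listed, 65 were tested and 8 rose (12.3%, against 0.189% over all genes tested). Of the 65, 53 were above 0, with a median log2 fold change of 1.04 against -0.01 over all genes tested. Their summed level ranged from 86.9 to 132 CPM in controls (median 101) and from 93.8 to 251 CPM in *ChAT-BKO* libraries (median 205), and 5 of 6 *ChAT-BKO* libraries were above all controls. The library of *ChAT-BKO* replicate 4, at 93.8 CPM, lay within the controls. At these levels the list made up at most 0.0251% of the counts of a library. Against the pooled input, 9 of the 65 were higher in the control immunoprecipitates.

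Among the 8 muscle transcripts that rose, *Atp2a1*, the calcium pump of the fast-twitch sarcoplasmic reticulum, was at 0.349, 1.03 and 2.12 CPM in controls and at 0.525, 7.72 and 13.4 CPM in *ChAT-BKO* libraries (2.93, SE 0.50, adjusted p = 0.00955). *Acta1*, skeletal alpha actin, went from 1.3, 3.15 and 6.59 CPM to 1.18, 14.6 and 24.4 CPM (2.20, SE 0.46, adjusted p = 0.0495). *Tpm2*, a tropomyosin, went from 4.86, 6.40 and 9.09 CPM to 7.22, 16.1 and 20.8 CPM (1.25, SE 0.21, adjusted p = 0.00632). In each of the 8, every *ChAT-BKO* library except replicate 4 was above all controls. The others were *Myoz1*, of the Z-disc (2.00), *Ttn*, titin (2.12), *Mylpf*, a fast myosin light chain (2.09), *Tnnt3*, fast troponin T (2.40), and *Tnnc2*, fast troponin C (2.24), with adjusted p from 0.0240 to 0.0463. Without *ChAT-BKO* replicate 4, *Acta1* was at 2.45 (adjusted p = 0.000534) and *Ttn* at 2.30 (adjusted p = 0.00181). Replicate 4 was the library without the rise, so smaller p-values follow from its removal and are no further support. With each library left out in turn, *Acta1* lost its call in 9 fits (adjusted p up to 0.178) and *Ttn* in 7 (up to 0.152). *Myh7*, a slow myosin heavy chain singled out after its values were seen, was at 12.3 to 14.6 CPM in controls and at 9.81 to 12.9 CPM in *ChAT-BKO* libraries (-0.31, adjusted p = 0.279). Of 10 smooth muscle transcripts none passed (median 0.03).

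Since muscle level and genotype moved together across libraries, their parts in any 1 transcript were not separated by the design. With the mean log2 CPM of the muscle list as a covariate, 13 transcripts were upregulated and 5 downregulated, and 18 of the 50 kept their call. These 18 included *Arntl*, *Cry1*, *Per2*, *Nr1d2*, *Ciart*, *Nfil3*, *Cdkn1a*, *Lamp5*, *Loxl4*, *Scd3*, *Plch2* and *Sprr1a*. *Cry2* and *Srsf5*, called in every fit with 1 library left out, were at adjusted p = 0.0561 and 0.0772. The 8 muscle transcripts are part of this covariate, which therefore gives no test of them. In a fit of all 24 immunoprecipitates none of the 8 passed, and limma voom kept 2 of them and DESeq2 5. Whether muscle RNA reached the libraries from outside the neurons was not tested.

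**Figure D3:**
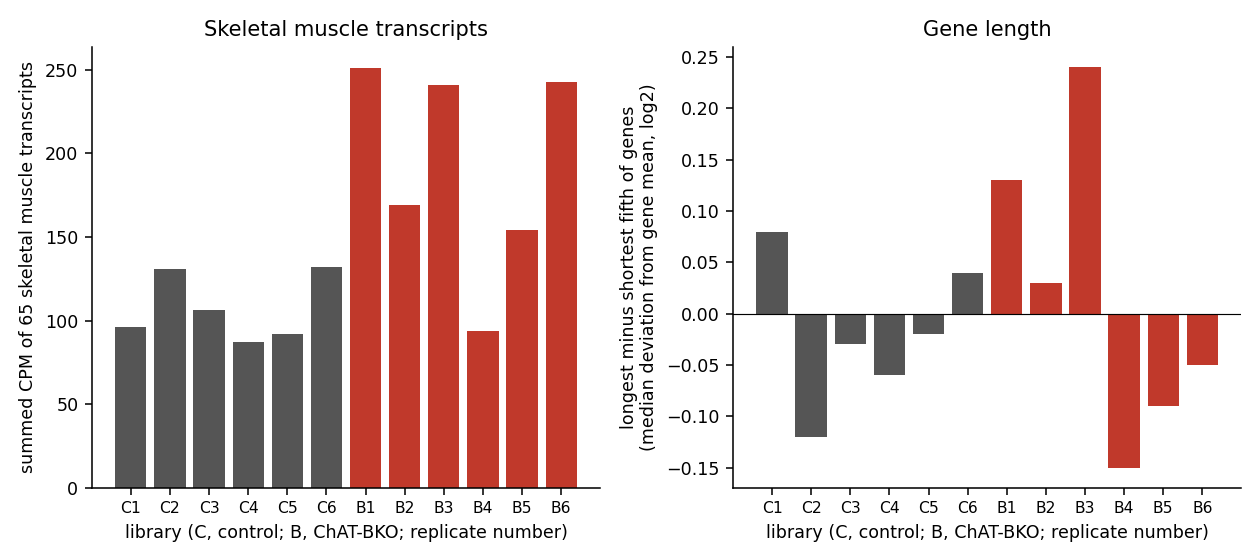
Left, summed CPM of 65 skeletal muscle transcripts in each of the 12 ZT20 libraries, from 86.9 to 132 in controls and from 93.8 to 251 in *ChAT-BKO* libraries. Right, the median deviation from the gene mean (log2 CPM) in the longest of 5 length bins of genes minus that in the shortest, which reaches 0.24 in *ChAT-BKO* replicate 3 and -0.15 in *ChAT-BKO* replicate 4.

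Gene length moved libraries of 1 group apart more than it moved the groups. Across 13212 genes with a known transcript length and a mean of at least 1 CPM, the deviation of the longest of 5 length bins minus that of the shortest ranged from -0.12 to 0.08 in controls and from -0.15 to 0.24 in *ChAT-BKO* libraries on the log2 scale. *ChAT-BKO* replicates 1 and 3 were the highest, at 0.13 and 0.24. The median log2 fold change by genotype rose with length, from -0.025 in the shortest bin to 0.031 in the longest. The smallest change of a called transcript was 0.25. The shortest bin held 8 upregulated and 4 downregulated transcripts, and the longest held 6 and 0. Whether length contributed to any call was not tested. The transcripts that passed had a median length of 1490 bases, against 1420 over all genes tested. With the slope of each library on length as a covariate, all 50 kept their call, and 80 upregulated and 37 downregulated transcripts were added, which brought the counts to 121 and 46. This slope was taken over all 18902 genes tested with a known length, and is not the bin measure above. It ranged from 0.07 to 0.21 across libraries, against -0.26 to -0.10 over genes of at least 1 CPM. Cytoplasmic ribosomal protein transcripts had a median of -0.10 with 84 of 90 below 0 and none passing.

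**Figure D4:**
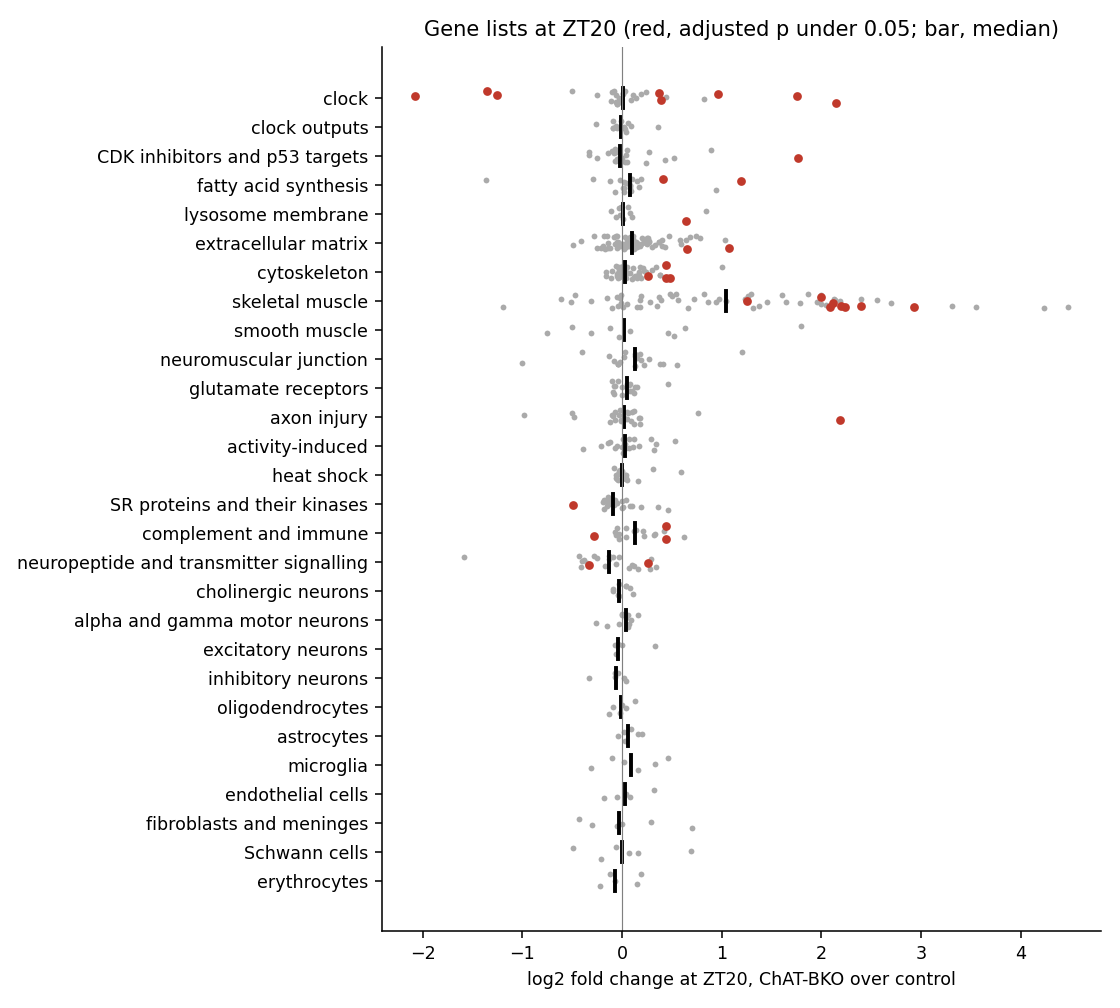
Log2 fold change at ZT20 of each member of the gene lists, with members that passed in red and the list median as a bar. The clock list spreads from -2.08 to 2.15 around a median of 0.01, the skeletal muscle list is shifted to a median of 1.04, and the cell type lists in the lower rows lie near 0.

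Copies of 2 ribosomal protein genes gave some of the smallest p-values. *Rps13-ps1* was at 13.6, 15.6 and 20.6 CPM in controls and had no count in any *ChAT-BKO* library, at least 336-fold lower with 3 counts over the group as the floor (adjusted p = 4.50e-10). *Rps15a-ps7* was at 6.75, 7.43 and 8.44 CPM in controls and at 0.133, 0.349 and 0.577 CPM in *ChAT-BKO* libraries (-4.50, SE 0.20, adjusted p = 5.12e-11). *Rps13-ps2* went the other way, from 0.161, 0.354 and 0.524 CPM to 3.38, 4.23 and 7.35 CPM (3.75, SE 0.27, adjusted p = 8.27e-08). Such pseudogenes share reads with their near-identical parent genes, and these values are uncertain for that reason. *Rps15a-ps5*, at 0.0804 to 0.639 CPM in controls and at 0 in all *ChAT-BKO* libraries, was at least 9.72-fold lower on the same floor (adjusted p = 0.0234). Summed with its 5 copies, *Rps13* was at 128 ± 15.7 CPM (SD, n = 6) in controls and 120 ± 28.1 CPM in *ChAT-BKO* libraries. Summed with its 8 copies, *Rps15a* was at 89.3 ± 5.28 CPM and 95 ± 12.2 CPM, and for both sums the groups overlapped. *Rps13* and *Rps15a* lie on chromosome 7, as does *Arntl*.

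Within 20 Mb of *Arntl* on chromosome 7, 5 of 453 genes were upregulated (1.10%) and none was downregulated, against 36 upregulated of 20824 elsewhere (0.173%). The 5 were *Il4ra*, *Arl6ip1*, *Mical2*, *Atp2a1* and *Mylpf*, and the last 2 belong to the muscle list. The medians were 0.00 near *Arntl* and -0.01 elsewhere.

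The same genotypes at ZT8, in the light, rest period, served as a comparison on separate mice. At ZT8 28 genes were upregulated (0.129%) and 12 downregulated (0.0552%), and 25 of the 50 called at ZT20 were called at ZT8 as well, all 25 in the same direction. *Cry1* was at 3.79 ± 0.527 CPM (SD, n = 6) in controls and 16.4 ± 1.14 CPM in *ChAT-BKO* libraries at ZT8, against 3.96 ± 0.340 and 17.7 ± 2.05 CPM at ZT20. *Per2* reached 9.50 ± 1.35 CPM in *ChAT-BKO* libraries at ZT8 and 14.0 ± 3.19 CPM at ZT20, on control levels of 3.81 ± 1.13 and 4.19 ± 0.654 CPM. *Nr1d1* passed at ZT8 (-0.72, adjusted p = 4.92e-05) but not at ZT20, and the difference between its effects, 0.23 on the log2 scale, had an unadjusted p = 0.149 from edgeR.

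A change of the genotype effect from ZT8 to ZT20, tested on all 24 immunoprecipitates, was called for 0 genes (0%) with edgeR, DESeq2 and limma voom. With edgeR, 848 of 21738 genes had an unadjusted p under 0.05. That is fewer than this threshold gives on average when no gene differs. The smallest p belonged to *Sprr1a*, which was at 3.81 ± 3.76 CPM in controls and at 1.59 ± 0.660 CPM in *ChAT-BKO* libraries at ZT8 (log2 fold change -1.14, adjusted p = 1 from edgeR). Its effects differed by 3.34 (SE 0.69, unadjusted p = 3.97e-05, adjusted p = 0.864 from edgeR), and the control libraries at ZT8 were widely spread. With the length covariate it was called (adjusted p = 0.0115 from edgeR). The next 4 by p were *Gm5931*, *LOC118567983*, *Adamts7*, an extracellular protease, and *LOC118567348*, with an adjusted p of 1 each from edgeR. At ZT20 *Adamts7* had 21 counts over the controls and 0 over the *ChAT-BKO* libraries, and *LOC118567983* had 0 and 8, so no size is given for these differences.

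*Srsf5*, which fell at ZT20, was at 73.9 ± 15.2 CPM in controls and at 76.3 ± 8.71 CPM in *ChAT-BKO* libraries at ZT8 (0.05, adjusted p = 1 from edgeR), and the difference of effects was -0.53 (SE 0.15, unadjusted p = 0.00162). None of the 8 muscle transcripts called at ZT20 passed at ZT8, where the list had a median of 0.20 and summed levels of 86.5 to 262 CPM in controls and at 89.0 to 397 CPM in *ChAT-BKO* libraries. At ZT8, then, single libraries of either genotype held as much muscle signal as the highest ZT20 libraries. *Loxl4* was at 0.74 on the log2 scale at ZT8 (adjusted p = 0.352 from edgeR) and at 1.07 at ZT20, and the difference of 0.34 had an unadjusted p = 0.172.

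**Figure D5:**
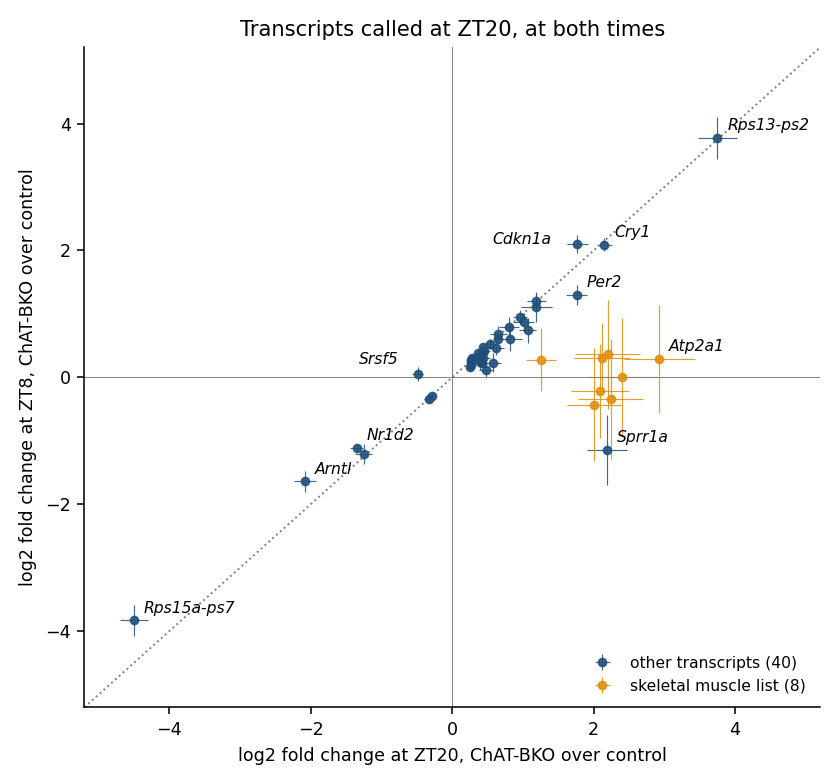
Log2 fold changes, *ChAT-BKO* over control, of 48 transcripts called at ZT20, with ZT20 on the horizontal and ZT8 on the vertical axis, bars of 1 SE and a dotted line of equal change. The 40 transcripts outside the muscle list lie near the dotted line except *Sprr1a*, *Srsf5* and a few smaller changes, and the 8 muscle transcripts lie between 1.25 and 2.93 at ZT20 and between -0.43 and 0.36 at ZT8. *Rps13-ps1* and *Rps15a-ps5*, with no count in *ChAT-BKO* libraries, are left out.

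With each library left out in turn, 26 of the 50 transcripts were called every time, among them the 8 clock transcripts, *Cdkn1a*, *Lamp5*, *Loxl4*, *Scd3*, *Sprr1a*, *Srsf5*, *Tpm2* and *Atp2a1*. The other 24 lost their call without at least 1 library. Leaving out replicate 3 of the controls lost 22, replicate 4 of the controls 21 and replicate 1 of *ChAT-BKO* 20. Fewer were lost without *ChAT-BKO* replicate 2 (17), control replicate 5 (17), control replicate 1 (15), *ChAT-BKO* replicates 3 and 6 (15 each), control replicate 2 (10), control replicate 6 (6) and *ChAT-BKO* replicate 5 (2), while none was lost without *ChAT-BKO* replicate 4. *Colq* had an adjusted p of 0.0977 without control replicate 5, *Cd24a* 0.0617 without control replicate 4, *Lxn* 0.138 and *Mical2* 0.136 without control replicate 3, and *Acta1* 0.178 without control replicate 5. *Prkcd*, *Palld*, *Tubb6*, *Miga2*, *Tm6sf1*, *Tnnc2* and *Kcng4* were called in 2 or 3 of the 12 such fits.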

How the data were processed

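Ribosome-bound RNA was captured with an antibody to the HA tag of *RiboTag* from 24 spinal cords, and 1 pooled input was kept. Libraries were stranded mRNA libraries sequenced as paired ends. The values are expected counts per gene deposited by the authors, made with STAR 2.7.5 and RSEM on the mm10 genome, and the study tested them with DESeq2 1.32.0. Since 6.11% of the values were not whole, they were rounded here. Genes with at least 10 counts over the 24 immunoprecipitates were kept, scaled by TMM and tested between the 6 *ChAT-BKO* and 6 control libraries of ZT20 with edgeR 4.0.16 (glmQLFit and glmQLFTest, R 4.3.3) and Benjamini-Hochberg adjustment at 0.05 over all genes tested. The p-values set the difference between genotypes against the spread between mice of a group. The 95% intervals are normal intervals from the SE. The ratio to the input used 0.1 CPM as pseudocount. The difference of effects was tested on all 24 immunoprecipitates.

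Alternatives were DESeq2 1.42.0, its size factors in edgeR, no filter, filterByExpr, limma 3.58.1 voom with quality weights, a fit of all 24 immunoprecipitates, a replicate block, a covariate for the slope of each library on transcript length, a covariate for muscle level, and each library left out. The tests were checked on simulated data. The genes that could be named were every gene that passed, every member of a gene list and the 5 with the smallest p for the difference of effects. Members and lists were chosen with earlier results of these data known. Positions come from GENCODE M21 and RefSeq on GRCm38, and promoter letters from RefSeq. Total counts were 5.22 to 31.7 M per ZT20 library, which limits transcripts of a few CPM most in the shallower *ChAT-BKO* libraries. A further result is not reported here.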

Additional observations from a re-analysis of the deposited data

Results flagged for a closer look

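Among 152 groups of 6 libraries examined by gene, 6 held a library apart from the rest by Dixon's 95% critical value for the gap over the range, and chance gives about 1 in 20 groups. Control replicate 1 was highest for *Nr1d1* at 64.2 CPM, with the next library at 40.1 CPM, and highest for *Clock* at 24.6 CPM, with the next at 19.0 CPM. Control replicate 4 was lowest for *Scd3* at 3.23 CPM, with the next at 4.41 CPM. Control replicate 2 was lowest for *Fam222a* at 6.04 CPM, with the next at 8.18 CPM. *ChAT-BKO* replicate 6 was highest for *Colq* at 10.7 CPM, with the next at 8.30 CPM. Control replicate 6 was lowest for *Rps15a-ps5* at 0.0804 CPM, with the next at 0.471 CPM. Technical and biological sources of these values were not tested.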

How the results depend on the processing

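The 41 upregulated and 9 downregulated transcripts became 80 and 13 with DESeq2, 121 and 46 with the length covariate, and 13 and 5 with the muscle covariate, and the last 2 covariates are measured from the same libraries. With 1 library left out, the counts ranged from 23 to 57 and from 6 to 12. Upregulated counts were 23 when replicate 3 or 4 of the controls or replicate 1 of *ChAT-BKO* was omitted, 27 when replicate 6 of *ChAT-BKO* was and 57 when its replicate 4 was. The difference between ZT20 and ZT8 was called for 1 gene with the length covariate. *Acta1*, itself part of the muscle covariate, turned to -0.15 with it. Replicate numbers did not pair the samples (correlation of deviations from -0.08 to 0.24, over 0.1 in 2 of 6 pairs, 1 of 6 controls best with its own number). The replicate block, fitted with the newer quasi-likelihood option, gave 39 and 7 calls, 37 of the 50 kept. That option without the block, added after seeing simulated data, gave 54 and 12. The block is therefore to be set against 54 and 12, not against the main 41 and 9. Calls kept out of 50 were 46 with DESeq2, 48 with its size factors, 50 without a filter, 41 with filterByExpr, 41 with limma voom and 39 with all 24 libraries. The causes were not tested.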
